A study of Mus musculus with 56 samples.

Results

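The genes described here carry sterols out of the liver cell or serve the transport of cholesterol back to the liver. They are Abcg5, Abcg8, Abca1, Abcg1, Scarb1, Lcat and Pltp, 7 of the 23813 named genes in a table of liver RNA, chosen by gene symbol and by the first listed transcript of each gene. All 7 passed the filter on low values in each comparison. RNA sequencing (RNA-seq) of polyadenylated RNA was performed on liver from male mice in 3 groups of 4 libraries. The hypothyroid WT group received propylthiouracil (PTU), which blocks thyroid hormone synthesis, and the hyperthyroid WT group received PTU and triiodothyronine (T3). The third group was hypothyroid L-NCOR1ΔID mice, also given PTU. These mice express, in the liver, a form of the co-repressor NCOR1 that lacks the domains for interaction with the thyroid hormone receptor (TR), and were of a mixed strain background. How the mutant form is restricted to the liver is not given in the sources used here. All 3 groups thus received PTU, and T3 was given to WT mice alone. The labels call the libraries of a group replicates and give no age, and p-values measure the spread between these libraries. A supplementary table of the study, which covers more animals than were sequenced, lists a lower mean age for L-NCOR1ΔID than for both WT groups, so that age and genotype cannot be told apart here. The study's methods do not state the strain background of the WT mice used for RNA, so that strain and genotype cannot be told apart either.

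Cholesterol leaves hepatocytes by several routes. ABCG5 and ABCG8 are half-transporters that work as a pair and move cholesterol and plant sterols across the canalicular membrane into bile. ABCA1 loads cholesterol and phospholipid onto lipid-poor apolipoprotein A-I to form nascent HDL, and ABCG1, best known in macrophages, passes cholesterol to more mature HDL. LCAT esterifies cholesterol in HDL, PLTP moves phospholipids between lipoproteins, and SR-BI, encoded by Scarb1, takes cholesteryl ester from HDL into the liver. Liver X receptors (LXRs) are known to induce Abcg5, Abcg8, Abca1, Abcg1 and Pltp. Like TR, they bind DNA with RXR at direct repeats of a hexamer spaced by 4 bases (DR4).

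Abcg5 and Abcg8 lie head to head. On mm9 Abcg5 occupies chr17:85057574-85082351 on the minus strand and Abcg8 chr17:85082461-85099673 on the plus strand (GENCODE M1), so that both start from the ends of an interval of 109 bases, chr17:85082352-85082460. This interval is shown on the plus strand, reading from Abcg5 on the left towards Abcg8 on the right, because Abcg5 and Abcg8 were the genes of the set called in both comparisons with hypothyroid WT mice. Capitals mark TTATCT, the reverse complement of AGATAA, a form of the motif for GATA factors.
Abcg5/Abcg8 interval: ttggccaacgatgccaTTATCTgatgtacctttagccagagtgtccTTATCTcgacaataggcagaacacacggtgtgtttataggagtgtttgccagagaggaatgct
Within 250 bases upstream of their starts Abcg5 held AGATAA 2 times and Abcg8 held it 3 times on either strand, and these windows share the interval above. This motif was found in 9.18% of 22232 promoters of the same length. The hexamer AGGTCA was found in none of the 7 member promoters and in 12.3% of all promoters. TATAAA was present in the windows of Abcg5, Abcg8 and Abca1 and in 12.2% of all promoters. The GC box GGGCGG, in 41.3% of all promoters, was present in those of Abca1, Abcg1, Scarb1 and Pltp. Both strands were searched for each motif. The other members are not neighbours of this pair. Abca1 (NM_013454) lies at chr4:53043659-53172767, Scarb1 (NM_001205082) at chr5:125757457-125821464, Lcat (NM_008490) at chr8:108463451-108467282 and Pltp (NM_011125) at chr2:164665018-164683211, all on the minus strand. Abcg1 (NM_009593) lies at chr17:31194643-31252722 on the plus strand, and the records used for the pair are NM_031884 (Abcg5) and NM_001286005 (Abcg8).

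DR4 sites were scored as the number of bases, out of 12, that match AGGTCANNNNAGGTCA on either strand. The deposited list of 37200 liver regions with acetylated H3K27 or H3K9, merged by the authors over both marks and over hypothyroid and hyperthyroid WT mice, was searched. A complete match was found in 102 regions (0.274%). Of the 11809 tested genes with a position, 1.96% had such a region within 100 kb of the start. At members of the set, complete matches lay in intron 1 of Abcg8, within 100 kb of Abcg5 as well, and in intron 1 of Scarb1. They are shown with 40 bases on each side, on the strand that reads AGGTCA, with both hexamers in capitals.
Abcg8, chr17:85085703-85085798, minus strand: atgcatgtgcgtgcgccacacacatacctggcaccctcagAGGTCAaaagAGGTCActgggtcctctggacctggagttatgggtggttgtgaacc
Scarb1, chr5:125809577-125809672, plus strand: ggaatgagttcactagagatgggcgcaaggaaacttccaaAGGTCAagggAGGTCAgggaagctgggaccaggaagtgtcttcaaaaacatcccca
The site in Abcg8 lay 3290 bases downstream of the Abcg8 start and 3400 bases upstream of the Abcg5 start. That in Scarb1 lay 11839 bases downstream of the start. Sites with 11 or more matching bases were present in 4.48% of all regions. Within 100 kb of the starts, such a site was found in at least 1 acetylated region of each member, with Abcg5 and Abcg8 sharing theirs, and in those of 30.4% of the 11809 tested genes with a position. The members differ from one another in the number and length of their regions, and longer regions offer more bases to match. The remaining 9 sites, with 11 matching bases each, were distributed as 4 at Scarb1, 2 at Lcat and 1 each at Abca1, Abcg1 and Pltp. In the 250 bases upstream of the start, the closest DR4 matched 9 of 12 bases in Abca1 (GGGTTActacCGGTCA, chr4:53172819-53172834, plus strand) and in Lcat (AGGCCAgcccAGGACT, chr8:108467309-108467324, minus strand), and 7 or 8 in the other 5. A score of 9 or more was reached by 17.2% of promoters. A match describes the letters of the sequence and no binding was measured here.

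**Figure D1:**
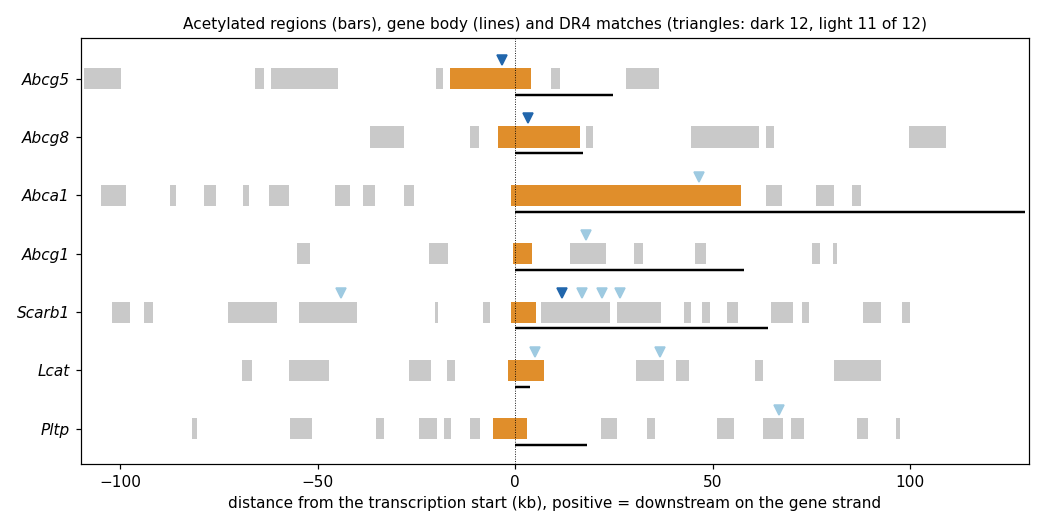
Acetylated regions within 100 kb of each member. The horizontal axis gives the distance in kb from the transcription start, positive downstream on the strand of the gene, orange bars are regions that hold the start, grey bars are the other regions, black lines are gene bodies, and triangles are DR4 sites with 12 (dark) or 11 (light) of 12 matching bases. The region at the start of Abca1 is 58346 bp long, the longest at any member.

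The transcription start of each of the 7 genes lay within an acetylated region, as did those of 87.7% of the 11809 tested genes with a position. These regions differed in size. Abcg5 and Abcg8 shared 1 region of 20661 bp (chr17:85078208-85098868), which covers the interval between the genes and most of Abcg8, including the DR4 site above. The region at Abca1 (chr4:53115482-53173827) had a length of 58346 bp and ranked 9th of the 37200 regions by length, and it covers the start and much of the 5′ part of this gene. Regions at the starts of Lcat, Pltp, Scarb1 and Abcg1 were 9099, 8567, 6297 and 4773 bp long, compared with a median of 3947 bp for regions at the starts of tested genes. Within 100 kb of the start, Scarb1 had 16 regions, Pltp 14, Abca1 12, Lcat 9, Abcg1 8, and Abcg5 and Abcg8 the same 7, with a median of 7 (quartiles 5 and 10) over the tested genes. The list gives positions without read numbers, so that acetylation is not compared between the groups here.

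RNA levels are given as RPKM, reads scaled to the length of the transcript and to the depth of the library, which can be compared between genes. In hypothyroid WT mice Lcat had the highest RPKM of the set (244 ± 7.63, mean ± SD, n = 4), higher than 99.1% of all genes. It was followed by Scarb1 (56.6 ± 5.69), Abcg5 (42.2 ± 5.50), Abcg8 (33.2 ± 5.05), Abca1 (22.2 ± 2.26) and Pltp (16.4 ± 4.06). Abcg1 had the lowest level, 1.01 ± 0.287 RPKM. Among neighbours in this order, Abcg5 and Abcg8 overlapped in their ranges over the 4 libraries, as did Abca1 and Pltp. After T3 both Abcg5 and Abcg8 stood above Scarb1, with no overlap between Abcg8 and Scarb1. In L-NCOR1ΔID mice Abcg5, Scarb1, Abcg8, Pltp and Abca1 followed Lcat in this order, and each overlapped with the next.

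**Figure D2:**
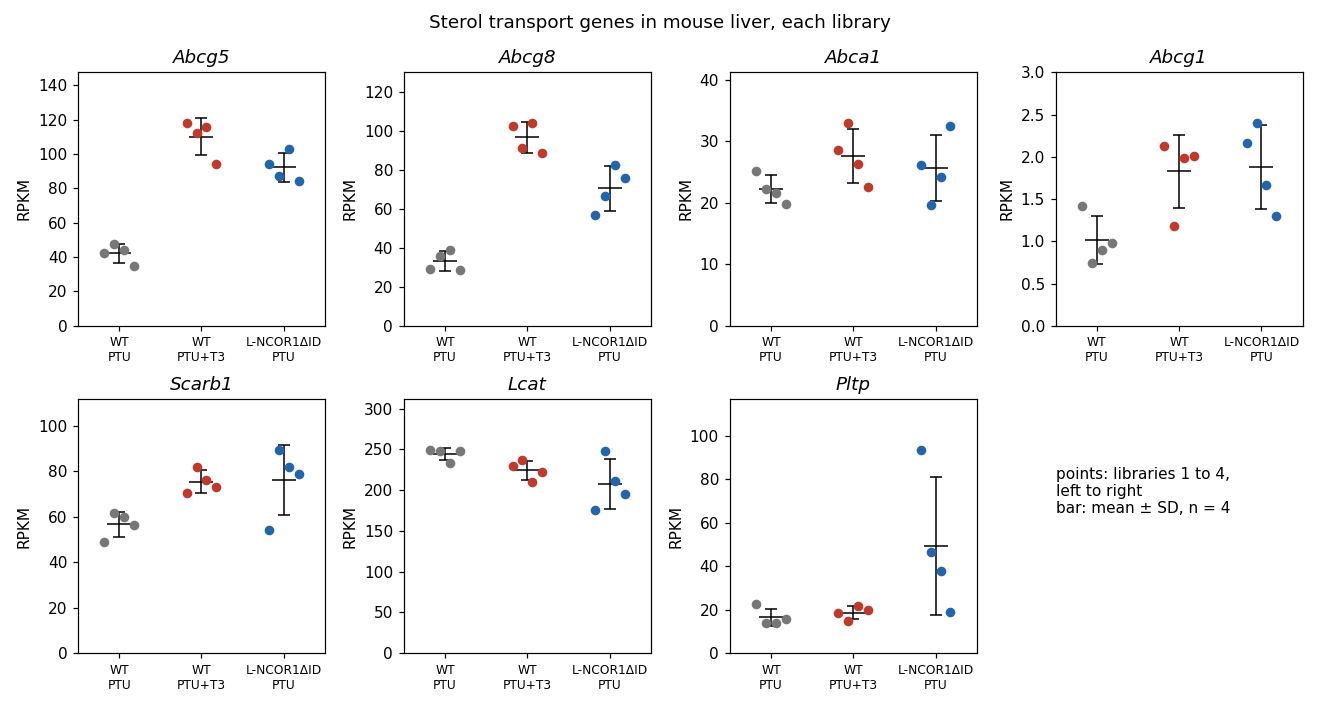
RNA level of each member in each library. The vertical axes give RPKM, points are the 4 libraries of a group from left to right, and bars are the mean ± SD. Abcg5 and Abcg8 are higher in all T3 and all L-NCOR1ΔID libraries than in any hypothyroid WT library, and Pltp in L-NCOR1ΔID mice ranges from 18.8 to 93.5 RPKM.

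The first comparison asks which members respond to T3 in WT liver. The pair that secretes sterols into bile, Abcg5 and Abcg8, rose to more than 2.6 times the hypothyroid level, and Scarb1 rose by a smaller factor. Abca1, Abcg1, Lcat and Pltp did not pass the test. A gene was called when its adjusted p from limma on log2(RPKM + 0.1), corrected over all 13941 genes tested, was under 0.01. Of the 7 members 3 were called higher and none was called lower (5 and 0 at an unadjusted p under 0.05, passed by 42.9% of all tested genes as higher and 13.6% as lower), compared with 24.5% of all tested genes called higher and 7.71% called lower. The median log2 difference was 0.42 over the 7 members and 0.23 over all tested genes. With the additional requirement of a log2 difference above 1, the members called were Abcg5 and Abcg8, and 8.28% of all genes were called higher and 3.47% lower.

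Abcg5 was at 42.4, 47.5, 44.3 and 34.6 RPKM in the hypothyroid WT libraries and at 118, 112, 116 and 94.1 RPKM after T3. Every T3 library was above every hypothyroid library. The log2 difference was 1.38 (SE 0.112, 95% interval 1.13 to 1.64, limma adjusted p = 3.0e-05). Abcg8 was at 29.4, 35.9, 39.0 and 28.6 RPKM in hypothyroid mice and at 103, 91.5, 104 and 88.5 RPKM after T3, and again the groups did not overlap. Its log2 difference was 1.55 (SE 0.112, 95% interval 1.29 to 1.80, adjusted p = 1.9e-05). The table lists 3 transcripts for Abcg8, and the other records ranged from 28.02 to 41.3 RPKM in hypothyroid and from 86.3 to 112 RPKM in T3-treated mice, also without overlap. Scaling the libraries by the median of gene ratios, which removes the shift of 0.23 of all genes, left both genes called, with log2 differences of 1.15 for Abcg5 and 1.31 for Abcg8.

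Scarb1, the HDL receptor, was at 48.8, 61.6, 59.9 and 56.2 RPKM in hypothyroid WT mice and at 70.4, 82.0, 76.4 and 73.0 RPKM after T3. The groups did not overlap, which was also the case for 46.6% of all tested genes. The log2 difference was 0.42 (SE 0.0882, adjusted p = 0.0042). This call depended on the scaling, as the difference was 0.18 with an adjusted p of 0.14 after scaling by the median of gene ratios, where 47.2% rather than 76.0% of all calls were higher. It was also lost without hypothyroid WT replicate 4 (adjusted p = 0.013), without T3 replicate 2 (0.012) or without T3 replicate 3 (0.011) and with all 12 libraries in 1 fit (0.024).

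Abcg1 was at 1.42, 0.747, 0.902 and 0.984 RPKM in hypothyroid WT mice and at 2.13, 1.18, 1.98 and 2.01 RPKM after T3. T3 replicate 2 was below hypothyroid replicate 1, and the other 3 T3 libraries stood above all hypothyroid libraries. The log2 difference of 0.79 (SE 0.229) did not pass (adjusted p = 0.018). It passed without T3 replicate 2 (0.98, adjusted p = 0.0046) and without hypothyroid WT replicate 1 (0.95, adjusted p = 0.0092). Abca1 ranged from 19.8 to 25.2 RPKM in hypothyroid mice and was at 28.5, 33.0, 26.3 and 22.6 RPKM after T3, a log2 difference of 0.31 (SE 0.120, adjusted p = 0.061). Under scaling by the median of gene ratios the differences were 0.58 for Abcg1 (limma adjusted p = 0.067) and 0.07 for Abca1 (0.71).

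In the RPKM as deposited, the plasma factors showed smaller differences. Lcat was at 249, 247, 233 and 247 RPKM in hypothyroid WT mice and at 229, 236, 210 and 222 RPKM after T3 (log2 difference -0.12, 95% interval -0.28 to 0.03, adjusted p = 0.17). The lowest hypothyroid library lay below the highest T3 library, so that the groups overlapped. Under scaling by the median of gene ratios the Lcat difference was larger, -0.36, and was not called (limma adjusted p = 0.012). Pltp was at 22.4, 13.7, 13.9 and 15.6 RPKM in hypothyroid mice and at 18.4, 14.7, 21.5 and 19.8 RPKM after T3, and the ranges overlapped (log2 difference 0.20, 95% interval -0.19 to 0.58, adjusted p = 0.36). Its sign turned with the scaling by the median of gene ratios, to -0.04.

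Macrophage markers differed after T3. All 8 macrophage and Kupffer cell markers were called higher after T3, with summed levels of 70.6 to 100 RPKM in hypothyroid and 211 to 321 RPKM in T3-treated WT mice, and no marker of any cell type examined was at 0 in a library. All 8 calls held under scaling by the median of gene ratios. The 6 hepatocyte markers summed to 33763 to 45137 RPKM in hypothyroid and 15350 to 22441 RPKM in T3-treated mice, of which 2 were called lower (1 under that scaling). Of 7 endothelial markers 3, of 6 stellate cell markers 2 and of 4 lymphocyte markers 1 were called higher, and of 4 cholangiocyte markers 1 was called higher and 1 lower, compared with 24.5% of all tested genes called higher and 7.71% lower. Under scaling by the median of gene ratios the higher calls were 1 for endothelial and lymphocyte markers each and 0 for stellate and cholangiocyte markers. Their part in the differences of the 7 genes was not tested. In whole liver a change in the number of cells of a type and a change in RNA per cell cannot be told apart.

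The next comparison asks which members differ in L-NCOR1ΔID mice, whose NCOR1 lacks the domains for interaction with TR, without T3. The paper proposes that these domains may also serve to recruit NCOR1 to regulators other than TR. The parts of TR and of other regulators in the differences below were not tested. Abcg5 and Abcg8 were again the members that passed the test, each at more than 2.1 times the level of hypothyroid WT mice. Pltp had the largest log2 difference of the set but varied so widely among the L-NCOR1ΔID mice that it did not pass. In this comparison 2 of 7 members were called higher and none lower (5 and 1 at an unadjusted p under 0.05, passed by 12.8% of all tested genes as higher and 7.77% as lower), compared with 0.725% of 13790 tested genes called higher and 0.544% called lower. The median log2 difference was 0.83 over the members and 0.03 over all tested genes. Both comparisons use the same hypothyroid WT libraries.

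Ncor1, the targeted gene, was at 15.6, 14.3, 14.6 and 14.1 RPKM in hypothyroid WT and at 13.4, 12.1, 12.4 and 13.9 RPKM in L-NCOR1ΔID mice (log2 difference -0.18, adjusted p = 0.20). The value covers the whole transcript, so that it does not show the loss of the part encoding the interaction domains and does not check the labels.

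Abcg5 was at 94.3, 87.4, 103 and 84.2 RPKM in L-NCOR1ΔID mice, and its lowest value was above the highest of hypothyroid WT mice, 47.5 RPKM. The log2 difference was 1.13 (SE 0.109, 95% interval 0.89 to 1.38, limma adjusted p = 9.5e-04), and the adjusted p stayed under 0.01 in every alternative run. Abcg8 was at 56.7, 66.5, 82.8 and 76.0 RPKM in these mice, again without overlap with WT, where the highest value was 39.0 RPKM. The groups did not overlap for 13.1% of all tested genes. The log2 difference was 1.08 (SE 0.141, 95% interval 0.76 to 1.40, adjusted p = 0.0042). The adjusted p of Abcg8 rose to between 0.011 and 0.017 without hypothyroid WT replicate 1, 2 or 4 or without L-NCOR1ΔID replicate 2 or 3, while the log2 difference stayed between 0.999 and 1.12.

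**Figure D3:**
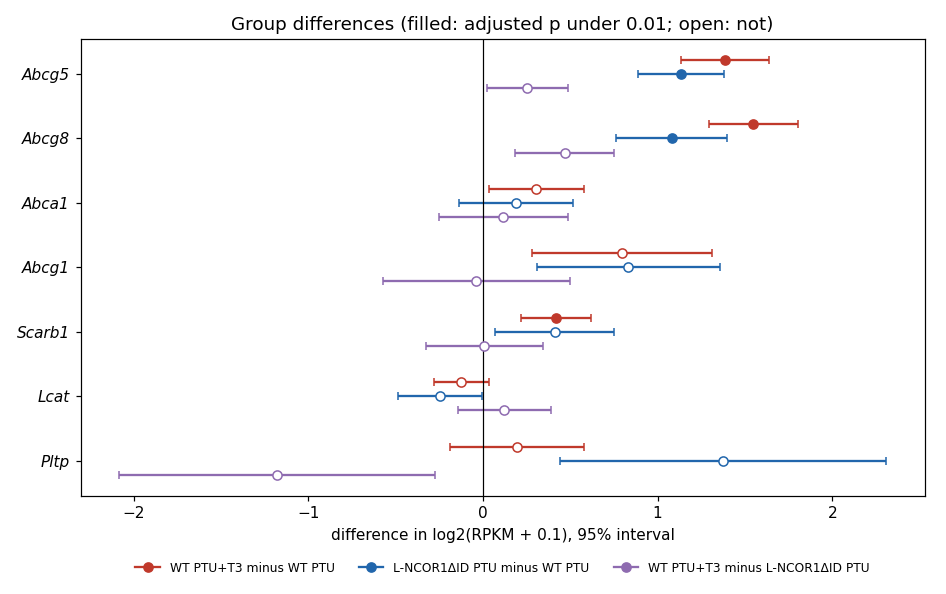
Group differences of each member. The horizontal axis gives the difference in log2(RPKM + 0.1) with its 95% interval from limma, the colours are the 3 comparisons, and filled points passed an adjusted p of 0.01. Abcg5 and Abcg8 passed in the comparisons of T3-treated WT and of L-NCOR1ΔID with hypothyroid WT mice, Scarb1 in the first alone, and no member passed between T3-treated WT and L-NCOR1ΔID mice.

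Pltp was at 93.5, 46.4, 37.7 and 18.8 RPKM in L-NCOR1ΔID replicates 1, 2, 3 and 4. The first 3 libraries stood above all hypothyroid WT libraries, whose highest value was 22.4 RPKM, and replicate 4 lay within the WT range. The coefficient of variation was 64.7%, compared with 24.8% in hypothyroid WT and 15.4% in T3-treated mice. The log2 difference was 1.38 (SE 0.413, 95% interval 0.44 to 2.31, adjusted p = 0.10). Without L-NCOR1ΔID replicate 4 it was 1.76 (adjusted p = 0.017), and without replicate 1 it was 0.99 (0.13). The summed macrophage markers were 112, 199, 95.8 and 74.2 RPKM in the same L-NCOR1ΔID libraries, and by limma 0 of the 8 markers were called in this comparison (2 higher at an unadjusted p under 0.05). Marco was 29.1 RPKM in replicate 2 and at most 4.62 RPKM in the other 3. The macrophage sum was highest in replicate 2 and Pltp in replicate 1, and both were lowest in replicate 4. The summed stellate cell markers were 91.3, 92.0, 58.3 and 71.2 RPKM in these libraries. By limma 0 of the 6 stellate cell markers were called (3 higher at an unadjusted p under 0.05), and 0 of 7 endothelial markers (1 higher). Col1a1, a stellate cell marker singled out after its values were seen, was at 6.08, 3.26, 1.42 and 0.866 RPKM, in the same order as Pltp. No other stellate cell marker shared this order. Dcn was at 71.5, 76.8, 47.3 and 58.7 RPKM and Reln at 6.73, 5.04, 4.40 and 6.55 RPKM in these libraries. The part of any of these cell types in the Pltp values was not tested.

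Abcg1 was at 2.17, 2.40, 1.67 and 1.30 RPKM in L-NCOR1ΔID mice, with replicate 4 below the highest hypothyroid WT library (log2 difference 0.83, SE 0.231, adjusted p = 0.081). Scarb1 was at 54.4, 89.5, 82.1 and 78.9 RPKM, and replicate 1 was inside the WT range while the other 3 were above it (log2 difference 0.41, SE 0.152, adjusted p = 0.17). Abca1 was at 26.1, 19.6, 24.2 and 32.5 RPKM (log2 difference 0.19, 95% interval -0.14 to 0.52, adjusted p = 0.50). Lcat was at 175, 248, 212 and 195 RPKM, with replicate 2 inside and the other 3 below the WT range (log2 difference -0.25, SE 0.107, adjusted p = 0.24). These 4 genes thus did not pass the test over all genes at the spread between the libraries.

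T3-treated WT and hypothyroid L-NCOR1ΔID mice were then compared directly, since both had been set against the same WT mice. None of the 7 members was called, whereas 21.2% of 14017 tested genes were called in either direction, 15.5% higher after T3 and 5.7% lower. By limma 3 of the 7 had an unadjusted p under 0.05, as did 48.4% of all tested genes. Macrophage markers differed in this comparison too, with 5 of 8 called higher after T3 (1 under scaling by the median of gene ratios), and their part in these values was not tested. Abcg8 was 96.8 ± 7.93 RPKM after T3 and 70.5 ± 11.4 RPKM in L-NCOR1ΔID mice, with no overlap, a case found for 38.3% of all genes, and a log2 difference of 0.47 (SE 0.125, adjusted p = 0.017). Abcg5 was 110 ± 10.9 and 92.2 ± 8.31 RPKM (log2 difference 0.25, 95% interval 0.02 to 0.49, adjusted p = 0.081). Under scaling by the median of gene ratios these differences were 0.27 for Abcg8 and 0.06 for Abcg5. Pltp was at 18.6 ± 2.86 RPKM in T3-treated against 49.1 ± 31.8 RPKM in L-NCOR1ΔID mice (not called, log2 difference -1.18, 95% interval -2.08 to -0.27, adjusted p = 0.044), and it passed without L-NCOR1ΔID replicate 4 (-1.56, adjusted p = 0.0043). For Abca1, Abcg1, Scarb1 and Lcat the log2 differences lay between -0.04 and 0.12, with 95% intervals reaching from -0.57 to 0.50 for Abcg1, the widest of these 4.

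Since ABCG5 and ABCG8 act as a pair, the ratio of their RNA levels was computed within each library, which cancels the scaling of the library. Abcg5 exceeded Abcg8 in all 12 libraries. The ratio was 1.14 to 1.44 in hypothyroid WT, 1.06 to 1.22 in T3-treated WT and 1.11 to 1.66 in L-NCOR1ΔID mice, and these ranges overlapped. The mean log2 ratio was 0.35 ± 0.15, 0.18 ± 0.09 and 0.40 ± 0.25 (SD, n = 4). The difference in log2 ratio was -0.16 for T3-treated against hypothyroid WT mice (exact two-sided permutation p = 0.14, adjusted over the 3 pairs 0.21), -0.21 for T3-treated WT against L-NCOR1ΔID mice (exact permutation p = 0.14, adjusted 0.21) and 0.05 for L-NCOR1ΔID against hypothyroid WT mice (exact permutation p = 0.80, adjusted 0.80). None passed, and the sign of the last changed without L-NCOR1ΔID replicate 1 (-0.061) or hypothyroid WT replicate 3 (-0.0031). With 4 libraries against 4 the smallest p this exact test can give is 0.029.

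**Figure D4:**
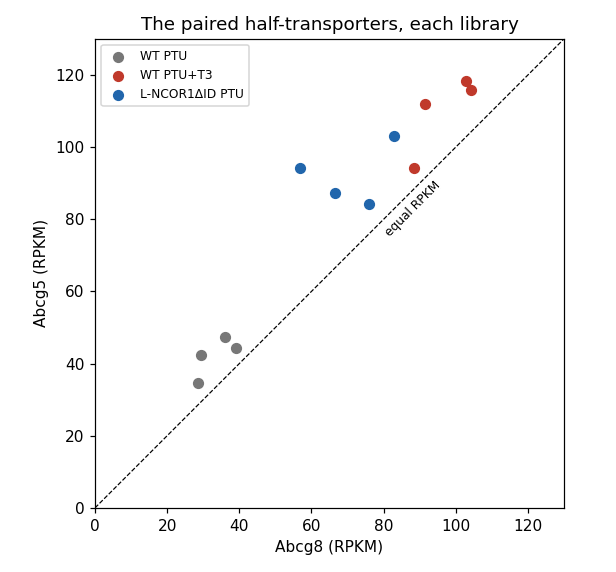
Abcg5 against Abcg8 in each of the 12 libraries. Both axes give RPKM on the same scale, colours are the 3 groups and the dashed line marks equal levels. Every library lies above the line, and the 4 hypothyroid WT libraries stand apart from the other 8 at the lower left.

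Among 10662 genes with a mean of at least 1 RPKM, Pearson's r of log2(RPKM + 0.1) was 0.97 between Abcg5 and Abcg8, the highest of all genes for Abcg8 and second for Abcg5. These are descriptions over 12 libraries that share 3 group levels. The genes most like Abcg5 were Fto (0.98), Abcg8 and Shmt1 (0.95), a serine hydroxymethyltransferase that was at 55.6, 132 and 121 RPKM on average in hypothyroid WT, T3-treated WT and L-NCOR1ΔID mice. Those most like Abcg8, after Abcg5, were Gldc (0.96), glycine decarboxylase, and Map3k13 (0.96), a kinase whose mean was 0.766, 10.4 and 3.63 RPKM. The gene most like Abca1 was Lamp2 (0.91). Those most like the other members were Polr1d, Tbkbp1 and Hist1h1c for Abcg1 (0.94 to 0.95), Tada3, Llgl2 and Lrrc41 for Scarb1 (0.91) and Vtn, Hamp and F2 for Lcat (0.82 to 0.88). Pltp was most like Uap1l1 (0.95), Robo1 (0.94) and Myo1d (0.93). Robo1, a guidance receptor, was at 5.68, 4.94, 2.25 and 0.563 RPKM in the L-NCOR1ΔID libraries, in the same order as Pltp, and at most 0.341 RPKM in the other 8 libraries.

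Other genes of sterol transport were examined in 7 lists of 67 genes, of which 65 were tested. After T3, 23 rose and 8 fell, in L-NCOR1ΔID mice 1 was higher and 2 were lower than in hypothyroid WT mice, and between T3-treated WT and L-NCOR1ΔID mice 17 were higher and 10 lower after T3. Over all tested genes, 32.2% were called after T3, 1.27% in L-NCOR1ΔID mice and 21.2% between T3-treated WT and L-NCOR1ΔID mice. The balance of higher and lower calls moved with the scaling of the libraries, which was tried for these lists after the data were seen. Under scaling by the median of gene ratios, 16 of the 65 were higher and 15 lower after T3, 1 was higher and 1 lower in L-NCOR1ΔID mice, and 8 were higher and 12 lower in T3-treated WT than in L-NCOR1ΔID mice.

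Among LXRs and other regulators, 7 of 13 rose and 1 fell after T3 and 1 was lower in L-NCOR1ΔID mice, and the median log2 difference after T3 was 0.42 against 0.23 over all genes. Under scaling by the median of gene ratios 2 rose and 3 fell after T3. Nr1h3, which encodes LXRα, was at 53.3 ± 3.54 RPKM in hypothyroid WT, 61.7 ± 2.97 after T3 and 45.8 ± 3.64 in L-NCOR1ΔID mice. It passed neither test against hypothyroid WT mice (log2 differences 0.21 and -0.22, adjusted p = 0.033 and 0.17), but it was higher after T3 than in L-NCOR1ΔID mice (0.43, adjusted p = 0.0037), a call that was lost under that scaling (0.24, adjusted p = 0.045). Nr1h2 (LXRβ) rose after T3 from 14.4 ± 1.80 to 19.6 ± 1.37 RPKM, Rxra, the common partner of these receptors, from 89.0 ± 6.32 to 125 ± 9.23 RPKM, and Hnf4a, a hepatocyte factor, from 182 ± 18.1 to 243 ± 11.9 RPKM, and none of the 3 was called in L-NCOR1ΔID mice. Under that scaling these differences did not pass (adjusted p = 0.097, 0.021 and 0.15). Srebf2, the activator of cholesterol synthesis, rose with a log2 difference of 1.33 and Nr0b2, the repressor SHP, fell by 1.11 on the log2 scale. Foxo1 (0.71) was also called, as was Rxrb (0.55), which did not pass under that scaling (0.31, adjusted p = 0.040). Nr5a2 was at 14.5 ± 1.85 RPKM in hypothyroid WT, 10.8 ± 1.48 after T3 and 16.4 ± 1.92 RPKM in L-NCOR1ΔID mice, and its level after T3 was lower than in L-NCOR1ΔID mice (-0.60, adjusted p = 0.0049), while it passed against hypothyroid WT mice (-0.42, adjusted p = 0.019) under that scaling alone (-0.66, adjusted p = 0.0025). Nr1h4, the bile acid receptor FXR, was lower in L-NCOR1ΔID than in hypothyroid WT mice, 39.3 ± 1.59 against 60.6 ± 1.72 RPKM (adjusted p = 8.8e-04).

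Of 9 other known LXR targets, Arl4c rose after T3 (log2 difference 0.88) and Lpcat3, a lysophospholipid acyltransferase, fell (-0.47). Lpcat3 was at 50.8 ± 1.94 RPKM in L-NCOR1ΔID against 39.1 ± 4.20 RPKM in hypothyroid WT mice and was not called (0.38, limma adjusted p = 0.040). Its level after T3 was lower than in L-NCOR1ΔID mice (-0.85, adjusted p = 1.7e-04). The median was 0.12 after T3, against 0.23 over all genes, and 0.38 in L-NCOR1ΔID mice, against 0.03. By limma 1 of the 9 was called higher in L-NCOR1ΔID mice (4 higher and 1 lower at an unadjusted p under 0.05). In L-NCOR1ΔID mice Scd1, the stearoyl-CoA desaturase, was higher, at 8000, 3745, 6006 and 4669 RPKM against 828 to 1046 RPKM in hypothyroid WT mice (log2 difference 2.53, adjusted p = 6.9e-04). After T3 it was at 180 to 720 RPKM, which did not pass against hypothyroid WT mice (adjusted p = 0.031). Scd1 thus stood highest in the L-NCOR1ΔID group, where Abcg5 and Abcg8 stood between both WT groups in their means.

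Of 5 tested genes of canalicular lipid secretion, 3 rose after T3 and by limma 0 were called in L-NCOR1ΔID mice (2 higher at an unadjusted p under 0.05). Abcb4, the phospholipid transporter of the canaliculus, was at 35.2, 44.8, 50.3 and 30.6 RPKM in hypothyroid WT, at 95.4, 111, 127 and 94.1 RPKM after T3 and at 41.3, 32.3, 33.1 and 30.1 RPKM in L-NCOR1ΔID mice. The T3 libraries were all above the others, and the L-NCOR1ΔID libraries overlapped with hypothyroid WT. Its log2 difference after T3 was 1.42 (adjusted p = 1.7e-04) and T3-treated WT exceeded L-NCOR1ΔID mice by 1.64 (4.8e-05). Abcb11, the bile salt export pump (1.32), and Tmem30a, a subunit of lipid flippases (1.10), also rose after T3. Abcb11 was at 82.5 ± 15.2 RPKM in hypothyroid WT, 208 ± 52.9 after T3 and 143 ± 39.9 RPKM in L-NCOR1ΔID mice. Its log2 difference between L-NCOR1ΔID and hypothyroid WT mice was 0.76 and was not called (limma adjusted p = 0.078).

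Of 9 genes of bile acid synthesis from cholesterol, 4 rose after T3 and by limma 0 were called in L-NCOR1ΔID mice (2 higher and 4 lower at an unadjusted p under 0.05). Cyp7b1, an oxysterol 7α-hydroxylase, rose from 76.7 ± 34.6 to 232 ± 22.6 RPKM and was 40.5 ± 17.8 RPKM in L-NCOR1ΔID mice. Cyp27a1, Hsd3b7 and Baat rose after T3 with log2 differences of 1.11, 0.67 and 0.65, and Hsd3b7 did not pass under scaling by the median of gene ratios (0.44, adjusted p = 0.022). Cyp7a1, the rate-limiting enzyme of bile acid synthesis, varied widely and was not called against hypothyroid WT mice, and was higher after T3 than in L-NCOR1ΔID mice (68.8 ± 42.5 against 8.63 ± 6.54 RPKM, log2 difference 2.97, adjusted p = 0.0085, and 0.014 under that scaling).

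Of 10 genes of the HDL particle and its uptake, 3 rose and 3 fell after T3, also under that scaling, and by limma 0 were called in L-NCOR1ΔID mice (1 higher and 1 lower at an unadjusted p under 0.05). Apoa4 (log2 difference 2.53) and Lipg, endothelial lipase (2.17), rose, and Pon1, paraoxonase (-1.40), and Apoa2 (-1.39) fell. Of 11 genes of intracellular cholesterol handling, Soat1, which esterifies cholesterol in the cell, rose (1.04) and Scp2, a sterol carrier, fell (-1.17). Under that scaling 1 rose and 5 fell. By limma 0 of the 11 were called in L-NCOR1ΔID mice (1 higher and 3 lower at an unadjusted p under 0.05).

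Among the other ABCG and ABCA transporters, 4 of 10 tested rose and 2 fell after T3. Abca3, a lipid transporter best known from lung, was at 4.18, 6.80, 10.3 and 5.57 RPKM in hypothyroid WT mice and at 52.4, 57.2, 49.9 and 45.8 RPKM after T3 (log2 difference 2.99), while L-NCOR1ΔID mice had 9.46, 7.19, 6.997 and 9.56 RPKM, within the hypothyroid WT range. Abca8a was at 34.5 to 48.2 RPKM in hypothyroid WT, 0.718 to 7.86 RPKM after T3 and 18.5 to 25.1 RPKM in L-NCOR1ΔID mice, lower in both (log2 differences -3.72 and -0.94, the second with an adjusted p of 0.0083, and 0.01026 under scaling by the median of gene ratios). Abca2 (1.19) and Abcg3 (0.90) also rose after T3, and Abcg3 did not pass under that scaling (0.69, adjusted p = 0.027). Of the ABC transporters in the set and this list, Abcg5 and Abcg8 were the members called higher in both comparisons with hypothyroid WT mice. Abcg1 had log2 differences of 0.79 and 0.83 in these comparisons and was called in neither (limma adjusted p = 0.018 and 0.081).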

How the data were processed

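Per the labels and the study's methods, STAR was used by the authors to align the RNA-seq reads (mm9), HOMER to quantify RefSeq transcripts, and the deposited unit is RPKM. The authors also deposited merged acetylated regions as positions. Of 31370 transcripts, 1 lacked a gene name and was dropped (at most 0.00079% of the RPKM of a library), and the first listed transcript represented each gene. No columns were left unused. Steps between low RPKM values gave a depth relative to hypothyroid WT replicate 1 of 0.931 to 1.22 in hypothyroid WT, 0.681 to 0.833 in T3-treated and 1.22 to 1.36 in L-NCOR1ΔID libraries. Read numbers were not used here. Per the labels, each library has runs from both HiSeq and NovaSeq instruments. Replicates correlated with r of 0.967 to 0.986.

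Groups were compared in pairs by limma (version 3.58.1, R 4.3.3) with a mean-variance trend on log2(RPKM + 0.1). Genes were tested when 4 or more libraries reached 0.1 RPKM, and p-values were adjusted over all of them by the Benjamini-Hochberg method. Fold changes of low genes are understated on this scale. The procedure was tested on simulated data. Ratios were tested by exact permutation (Python 3.11.15, scipy 1.17.1). Alternatives were pseudocounts of 1 and 0.01, no filter, a filter on a mean of 1 RPKM, a joint fit of 12 libraries, a replicate block, no variance trend, median ratio scaling, an adjusted p under 0.05, the highest transcript, single libraries left out, and, for regions, limits of 50 or 200 kb and distance measured from region centres. Positions and sequences came from GENCODE M1 and the NCBIM37 genome, the same build as mm9, with 1 transcript per gene.

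The members, lists and tests were chosen with earlier results of these data known. Named genes are all members with every library value, Ncor1, Nr1h3, Nr1h2, Rxra, Nr5a2 and Hnf4a, at most 4 called genes per list and comparison with the largest change, and the 3 most similar genes per member (1 alone for Abca1, the rest not being reported here). The cell type markers Marco, Col1a1, Dcn and Reln were named outside this rule, by their values in the L-NCOR1ΔID libraries.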

Additional observations from a re-analysis of the deposited data

Results flagged for a closer look

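Dixon's test was run on each of the 7 members in each of the 3 groups, 21 sets of 4 libraries, and marked 2, whereas chance marks about 1 in 20. In T3-treated WT mice Abcg1 was 1.18 RPKM in replicate 2, far below the other 3 libraries at 1.98 to 2.13 RPKM. In hypothyroid WT mice Lcat was 233 RPKM in replicate 3, below the other 3 at 247 to 249 RPKM. The wide spread of Pltp in L-NCOR1ΔID mice was not marked by this test.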

How the results depend on the processing

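Over 385 log2 differences of single members under alternative settings, 355 kept their direction and their side of the threshold. Of the others, 13 lost and 7 gained the call and 10 reversed. The filters, the joint fit, the replicate block, the variance trend and the thresholds leave the log2 difference itself unchanged. These settings could thus change a call but not a direction. None that was called reversed. The number of members called was 3 after T3 and 2 to 4 without 1 library. In L-NCOR1ΔID mice it was 2, and 1 under the replicate block, 1 without the variance trend and 1 to 2 without 1 library, the member lost being Abcg8 each time (adjusted p = 0.011 and 0.01005 in the first 2). Between T3-treated WT and L-NCOR1ΔID mice it was 0, and 2 at an adjusted p under 0.05 and 0 to 1 without 1 library. The causes were not tested. Reversals under median ratio scaling were Pltp after T3 (-0.038) and, between T3-treated WT and L-NCOR1ΔID mice, Abca1 (-0.077), Scarb1 (-0.19) and Lcat (-0.073). In the latter comparison the values without 1 library ranged from -0.0031 to 0.24 for Abca1, reversed without L-NCOR1ΔID replicate 2, from -0.19 to 0.15 for Abcg1, reversed without T3 replicate 2 or L-NCOR1ΔID replicate 1 or 2, and from -0.15 to 0.092 for Scarb1, reversed without T3 replicate 2 or L-NCOR1ΔID replicate 1. The log ratio of Abcg5 to Abcg8 between L-NCOR1ΔID and hypothyroid WT mice ranged from -0.061 to 0.13 without 1 library, reversing without L-NCOR1ΔID replicate 1 (-0.061) or hypothyroid WT replicate 3 (-0.0031).

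Genes called in L-NCOR1ΔID mice numbered 175, and 45 under the replicate block, 601 at an adjusted p under 0.05 and 67 to 187 without 1 library. After T3 they numbered 4488, and 6880 at that threshold and 1639 with a log2 difference above 1. Between T3-treated WT and L-NCOR1ΔID mice they numbered 2975, and 1642 under the block, 5407 at 0.05 and 1651 to 2672 without 1 library. Libraries of the same number did not deviate together (correlations of deviations -0.12 to 0.17), so that the numbers were not used to pair them. With the block Abcg1 was called after T3 (adjusted p = 0.0069). The number of regions moved by over 1.5 times within 50 kb for Abca1 (4), Abcg1 (5), Scarb1 (8) and Pltp (7) and within 200 kb for Scarb1 (26), Lcat (19) and Pltp (23). Scaling of the listed genes was an alternative added after the data were seen. The levels of Abcg1, near 1 RPKM, rest on the fewest reads of the set.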

Other observations

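Apoa4, an apolipoprotein of HDL and chylomicrons, was at 206, 151, 107 and 57.8 RPKM in L-NCOR1ΔID replicates 1, 2, 3 and 4, and Pltp, Robo1 and Uap1l1 ranked these libraries in the same order (Uap1l1 was at 5.44, 5.36, 3.72 and 1.74 RPKM). In hypothyroid WT mice Apoa4 was at 44.1 to 67.7 RPKM, so that the first 3 L-NCOR1ΔID libraries were above and the last was within that range, and it was not called in this comparison. Apoa4 was singled out after its values were seen. Robo1 and Uap1l1 were picked for their likeness to Pltp over these same libraries, and Shmt1 for its likeness to Abcg5. A shared order was thus favoured in advance. The L-NCOR1ΔID libraries are not alike for Apoa4, Pltp, Robo1 and Uap1l1, while Abcg5 ranged from 84.2 to 103 RPKM in them and Shmt1 from 120 to 122 RPKM.

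Map3k13, among the genes most like Abcg8, was at 0.447 to 1.46 RPKM in hypothyroid WT, 3.14 to 4.14 RPKM in L-NCOR1ΔID and 7.60 to 14.1 RPKM in T3-treated WT mice, with no overlap between the 3 groups. Fto, the gene most like Abcg5, had a narrow range, with 8.22 to 9.04 RPKM in hypothyroid WT, 11.5 to 12.03 RPKM after T3 and 10.5 to 11.8 RPKM in L-NCOR1ΔID mice.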
